A study of Mus musculus with 6 samples.

Results

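The 9 Dusp genes described here encode dual-specificity phosphatases that act on MAP kinases or, for Dusp22, on the signalling that leads to them. They were taken by name from the non-control spots of 6 one-colour Agilent arrays, namely Dusp1, Dusp2, Dusp4, Dusp5, Dusp6, Dusp7, Dusp10, Dusp16 and Dusp22. The arrays held 13 probes for these genes, of 39429 probes under 30342 gene names in all, and every probe had 4 spots. All 8 genes that could be tested differed between the groups by less than 2-fold in every sort.

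RNA came from γδ T cells of the spleen, sorted as Eomes-positive (GFP+) or as Eomes-negative (GFP-) from Eomes-IRES-GFP mice (the Eomestm1.1Twa allele) on the C57BL6 background. The mice carry a green fluorescent protein reporter at the locus of the T-box transcription factor Eomes, and both groups came from reporter mice, so both carry that allele. After depletion of B220+, CD4+ and CD8β+ cells, both groups were gated as CD3+, TCRγδ+ and TCRβ- and differed by GFP alone. Each of 3 independent sorts pooled spleens of 4 to 6 mice and gave 1 sample per group, and the samples numbered 1, 2 and 3 come from the same sort in both groups. The mice were 9 weeks old in sort 1, 9.5 weeks in sort 2 and 7.5 weeks in sort 3, and 9, 9 and 4 ng of RNA went into labelling. No treatment is named for any sample.

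MAP kinases (ERK, JNK and p38) are switched on by phosphorylation of a threonine and a tyrosine in their activation loop, and dual-specificity phosphatases remove both phosphates. Several of these phosphatases are themselves transcribed in response to MAP kinase activity and so form a negative feedback. In T cells, signalling through the antigen receptor and cytokine receptors activates these kinases, and the phosphatases limit how strong and how long the signal is.

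Each level is given as log2 signal after subtraction of the array's own 75th percentile, so 0 means a signal at that percentile. Levels of different probes are not read as relative amounts of their transcripts, since probes differ in how well they bind. Summed signals of a list and the choice of the brightest genes or probes carry that probe effect. A difference is that of Eomes-positive minus Eomes-negative cells, and a gene counted as changed at a limma p, adjusted by Benjamini-Hochberg over all 16413 tested genes, under 0.05. The share of probes with a signal well above background was 47.7% to 56.6%, the raw 75th percentile was 1581 to 1684 intensity units in sorts 1 and 2 and 534 and 549 in sort 3, and precision is limited by having 3 arrays per group. Eomes itself had 5.31, 4.96 and 4.48 on the Eomes-positive arrays, against 0.72, 0.88 and -1.14 on the Eomes-negative arrays (limma adjusted p = 0.0178). The T cell receptor complex genes Cd3d and Cd3g differed by -0.06 and -0.07, with levels of 6.95 to 7.07 and 6.17 to 6.85 in Eomes-positive cells against 6.995 to 7.15 and 6.24 to 6.90 in Eomes-negative cells; the constant chains of the γδ receptor are not named on the array. Sort 2 stood apart in both groups: the summed linear signal of 10 myeloid marker genes, in multiples of the 75th percentile, was 293 (Eomes-positive) and 300 (Eomes-negative) there, and 16.6 to 40.5 on the other 4 arrays. S100a9 made the largest part of the sort 2 sums, at log2 levels of 7.14 (Eomes-positive) and 6.87 (Eomes-negative), against -1.10 to -0.06 on the other 4 arrays. Itgam alone of the 10 was instead highest in sort 3 in both groups, at 4.59 and 4.78, against 3.59 and 3.35 in sort 2. Summed erythroid markers were 23.6 (Eomes-positive) and 23.4 (Eomes-negative) in sort 1 and 165 to 281 in sorts 2 and 3. In pooled cells such as these, fewer cells of a type and less RNA per cell cannot be told apart.

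Of the 9 genes, 8 were measured on all 6 arrays, and Dusp4 was measured on none, a gene counting as measured where 50% or more of its spots were well above background. None of the 8 was called higher or lower with the group as the only term of the model, where 1.2% of all tested genes were called higher and 1.57% lower, 2.77% in all; Dusp2 was the 1 member at an unadjusted p under 0.05, as were 12.2% of all tested genes. With the sort added as a block, Dusp2 alone of the 8 was called, as lower in Eomes-positive cells; that fit called 3.66% of all tested genes higher and 4.33% lower. With group only, 0 genes on the whole array passed once sort 1 or sort 2 was left out, so calls of any gene by that fit need both sorts. The median difference of the 8 genes was 0.13, against -0.01 over all tested genes, and their median absolute difference was 0.24, against 0.20. For the other 7 genes the 95% interval of the difference held 0 in both fits.

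**Figure D1:**
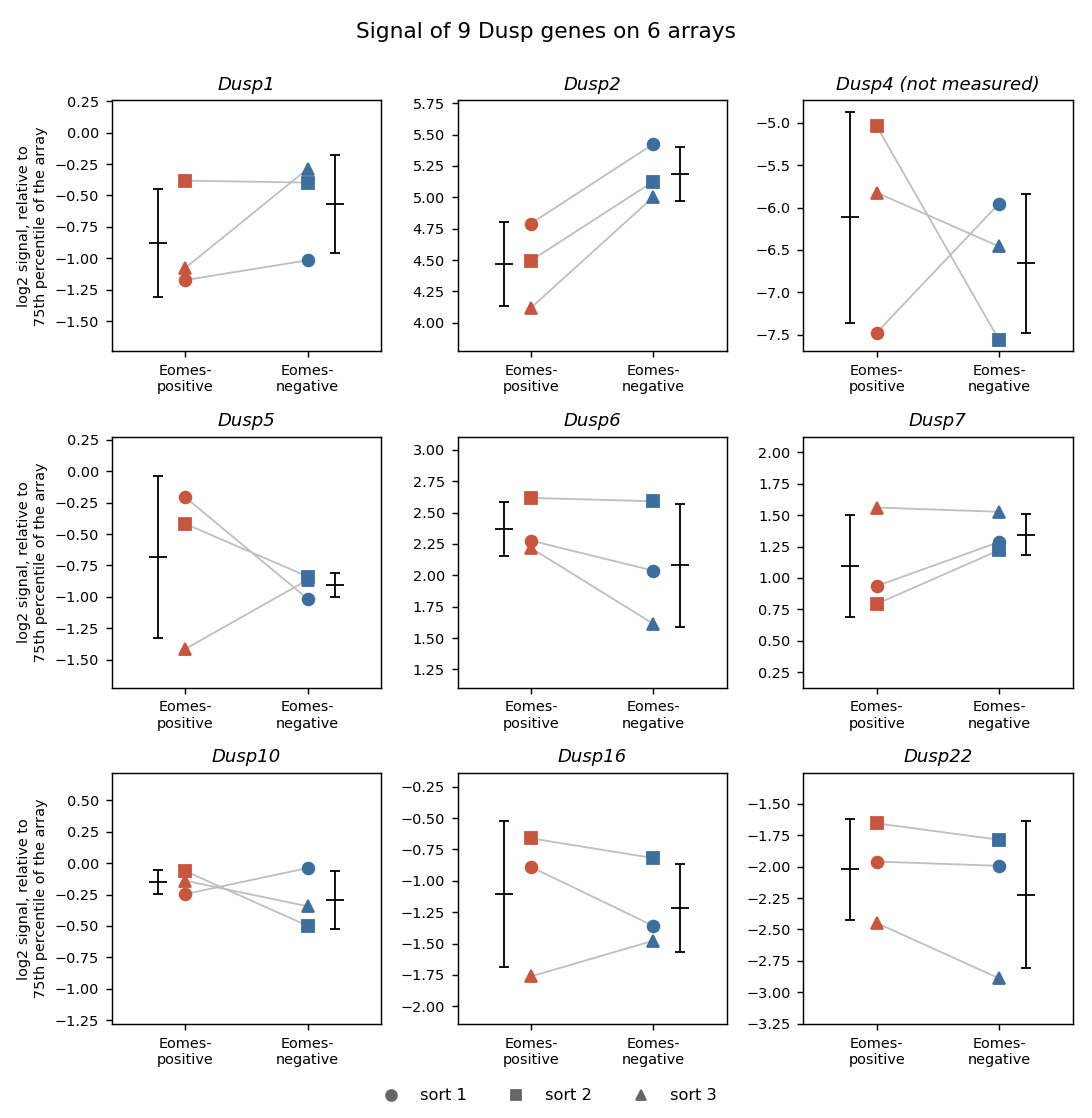
Level of each Dusp gene on each array (y axis: log2 signal over the array's 75th percentile; Eomes-positive in red, Eomes-negative in blue), with grey lines joining the samples of a sort and black bars for the mean ± SD over 3 arrays. Panels span the same number of log2 units except that of Dusp4, which was measured on no array; in the Dusp2 panel all 3 Eomes-positive points lie below all 3 Eomes-negative ones.

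Dusp2 encodes a nuclear phosphatase first known from activated lymphocytes, which acts on ERK and p38. Its 1 probe lies at chr2:127163930-127163989 (mm9 build, plus strand), and the first 30 of its 60 bases are shown because the only call among the 9 genes rests on it.
Dusp2 probe A_52_P399934: gtgggcatctcgctgtaattggtgctgaaa
The level of Dusp2 was 4.79, 4.50 and 4.12 in the Eomes-positive samples of sorts 1, 2 and 3, against 5.42, 5.13 and 5.003 in the Eomes-negative samples. Each Eomes-positive sample was thus below every Eomes-negative one, which was the case for 9.68% of all tested genes; no member had the opposite separation, with all Eomes-positive samples higher, against 8.53% of all tested genes. The means were 4.47 ± 0.34 in Eomes-positive cells and 5.18 ± 0.22 in Eomes-negative cells (SD, n = 3 each), a difference of -0.72 (SE 0.23, 95% interval -1.27 to -0.16), or 1.64-fold lower in Eomes-positive cells (95% interval 1.12- to 2.42-fold). This did not pass the test with group only (limma adjusted p = 0.249), and it passed with the sort as a block (SE 0.10, 95% interval -0.9996 to -0.43, limma adjusted p = 0.0353). The block takes out the level that both samples of a sort share: Dusp2 differed by -0.63, -0.63 and -0.88 within sorts 1, 2 and 3, and 27.1% of all tested genes were likewise lower in all 3 sorts. An exact two-sided permutation of 3 against 3 samples gave p = 0.1, the smallest it can give, and an exact flip of the signs of the 3 within-sort differences gave 0.25, also the smallest possible. With the block and any 1 sort left out, Dusp2 did not pass (limma adjusted p = 0.144 without sort 1, 0.123 without sort 2 and 0.123 without sort 3), nor did it with the block and no filter on dim probes (0.0717). Without sorts 1, 2 and 3 in turn its difference was -0.76, -0.76 and -0.63. The fits without a sort hold only 2 samples per group, and the share of all genes that passes them was not counted. The arrays lay on 3 slides, and with the slide as a block the difference was -0.66 (limma adjusted p = 0.231). The difference was -0.48 within slide 1, which held both samples of sort 1 and the Eomes-negative sample of sort 2. Slide 3 held the samples of sort 3 only, so its -0.88 is the sort 3 difference again. Slide 2 held the Eomes-positive sample of sort 2 only.

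**Figure D2:**
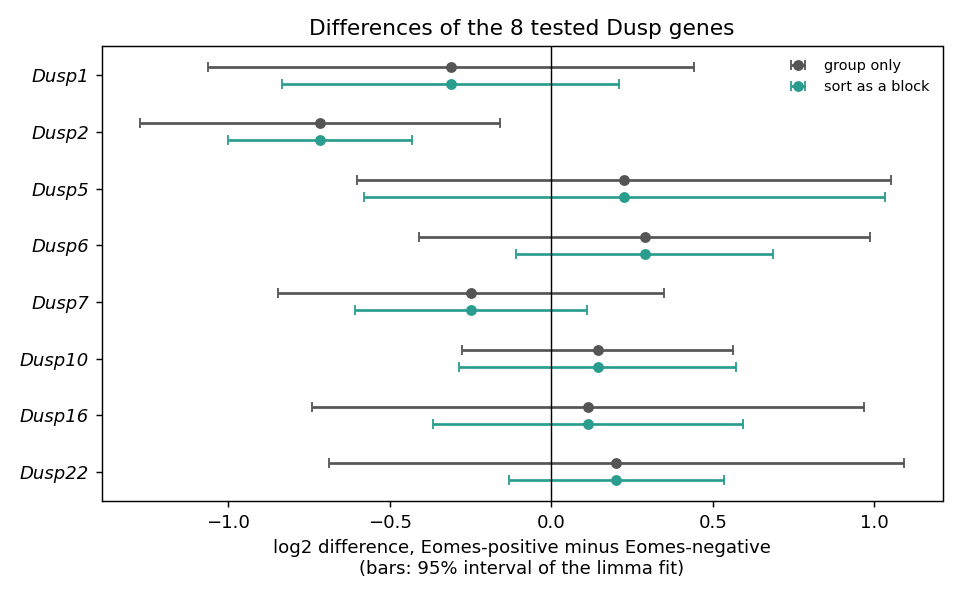
Difference of the 8 tested Dusp genes (x axis: log2, Eomes-positive minus Eomes-negative; points, with bars for the 95% interval of the limma fit), with group only in grey and with the sort as a block in green. Only the intervals of Dusp2 leave 0 out, at -1.27 to -0.16 with group only and -0.9996 to -0.43 with the block.

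Markers of other γδ T cell states and cell types differed between the same samples, and their part in the Dusp2 difference was not tested. With group only, 1.57% of all tested genes were called lower and 1.2% higher, for comparison with the counts below. Of 10 genes that mark type 17 γδ T cells, 8 were called lower in Eomes-positive cells and 0 higher. Their summed linear signal was 1.33 to 2.05 in Eomes-positive samples, against 27.6 to 37.9 in Eomes-negative samples. Il23r and Kcnk1 were measured on 0 Eomes-positive and 3 Eomes-negative arrays. They thus passed the filter of 3 of 6 arrays only through the group in which they are high. The count of 8 therefore cannot be weighed against the share of all tested genes. Only 4 of the 10 were measured on all 6 arrays, and of these 4, 3 were called lower. The count was also 3 without any 1 Eomes-negative sample, where Il23r and Kcnk1 no longer passed the filter and were not tested. Of 4 tested genes of αβ T cells 1 was called lower, Cd8b1, which was not called without Eomes-positive sample 1 or without any 1 Eomes-negative sample. Cd4, Cd8a and Tcra differed by -0.39, -0.88 and 0.18 and were not called. Summed signals of the list were 3.31 to 3.37 in Eomes-positive samples, against 8.33 to 11.2 in Eomes-negative samples. Cd8b1 made the largest part of the Eomes-negative sums, at log2 levels of 2.93, 2.23 and 2.44 in sorts 1, 2 and 3. Cd40lg was measured on no array, and the constant chains of the αβ receptor are not named on the array. Of 9 genes of NK cells and innate lymphoid cells 4 were called higher, among them Eomes, by whose reporter the groups were sorted. That count was 1 without Eomes-positive sample 1 or 2 or Eomes-negative sample 1, and 2 without Eomes-positive sample 3 or Eomes-negative sample 2. Fcgr3 alone of the 9 differed the other way, by -0.39. The sums, which include Eomes, were 110 to 160 in Eomes-positive samples, against 25.9 to 116 in Eomes-negative samples. The 116 was that of sort 2, the sort with the high myeloid sums. Fcer1g and Tyrobp were at 5.87 and 5.36 there, against 3.87 and 2.57 in Eomes-negative sample 1 and 3.69 and 2.64 in Eomes-negative sample 3. None of 8 tested B cell, 10 myeloid and 6 erythroid genes was called by limma with group only (1, 0 and 0 at an unadjusted p under 0.05), and the B cell sums were 9.69 to 19.1 in Eomes-positive samples, against 16.0 to 24.0 in Eomes-negative samples. With the block, 1 B cell gene, Cd79b, was called lower; the B cell gene Ighm and the erythroid gene Epb4.2 were measured on no array.

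Dusp1 is a nuclear phosphatase of p38, JNK and ERK, and a classic immediate early gene that stress and cell handling also induce. Its level was -1.17, -0.38 and -1.08 in the Eomes-positive samples of sorts 1, 2 and 3, against -1.02, -0.40 and -0.29 in the Eomes-negative samples. The groups overlapped, and the within-sort differences of -0.16, 0.02 and -0.79 differed most in sort 3, the sort with the least RNA. The difference was -0.31 (SE 0.30, 95% interval -1.06 to 0.44, limma adjusted p = 0.888 with group only and 0.369 with the block). On the Eomes-negative array of sort 2, 1 of the 4 Dusp1 spots was marked as an outlier and left out, and the log2 SD over all 4 spots was 3.50 there. For this 60-base probe the files give a position of only 11 bases, chr17:26642526-26642536 (mm9, minus strand).

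Dusp5 is a nuclear phosphatase specific for ERK and a target of ERK-driven transcription. It had levels of -0.21, -0.42 and -1.42 in the Eomes-positive samples of sorts 1, 2 and 3, against -1.02, -0.84 and -0.87 in the Eomes-negative samples. The Eomes-positive samples spread widely (SD 0.65) and lay on both sides of the Eomes-negative samples, which were close together (SD 0.10). Within sorts 1, 2 and 3 the differences were 0.81, 0.42 and -0.55, and the overall difference of 0.23 (95% interval -0.60 to 1.05) did not pass the test (limma adjusted p = 0.953, and 0.653 with the block). Without sort 1 it was -0.07.

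Dusp4, the remaining nuclear and inducible member, acts on ERK and JNK. Its probe, at chr8:35882045-35882104 (mm9, plus strand), read -7.48, -5.04 and -5.82 on the Eomes-positive arrays, against -5.95, -7.56 and -6.46 on the Eomes-negative arrays, with 1 of its 24 spots well above background (Eomes-positive, sort 2). The dimmest probe well above background had -6.73 to -5.14, depending on the array. No fold is given for Dusp4, since on no array of either group were 50% of its spots well above background.

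Dusp6 and Dusp7 encode cytoplasmic phosphatases specific for ERK, and Dusp6 is a widely used readout of ERK activity. Dusp6 had levels of 2.28, 2.62 and 2.22 in the Eomes-positive samples of sorts 1, 2 and 3, against 2.04, 2.59 and 1.61 in the Eomes-negative samples. The Eomes-positive sample was the higher one in each of the 3 sorts, as it was for 25.3% of all tested genes, though by only 0.03 in sort 2, against 0.24 in sort 1 and 0.60 in sort 3. The difference was 0.29 (SE 0.28, 95% interval -0.41 to 0.99, limma adjusted p = 0.887 with group only and 0.292 with the block). In both groups the sort 2 sample, the one with the high myeloid sums, had the highest Dusp6 level, and this was not tested further.

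Dusp7 had 2 probes, which overlap on the chromosome, at chr9:106277985-106278044 and chr9:106277943-106278000 (mm9, plus strand). Their stretches that hold the same 15 bases, in capitals, are shown because the probes differed in how far sort 3 lay from the other sorts.
Dusp7 probe A_55_P1993836, bases 1 to 30: cACACATATATATCCCgagccagcaacggg
Dusp7 probe A_55_P2000628, bases 31 to 60: gacacacacacacatACACATATATATCCC
The brighter probe, A_55_P1993836, read 0.94, 0.79 and 1.56 on the Eomes-positive arrays of sorts 1, 2 and 3, against 1.29, 1.22 and 1.53 on the Eomes-negative arrays. The other probe read -0.72, -0.29 and 1.52 on the Eomes-positive arrays, against -0.57, -0.25 and 1.46 on the Eomes-negative arrays. In raw intensity the brighter probe was lowest in sort 3, at 1576 and 1584, against 2780 to 4100 in sorts 1 and 2. The other probe had 1529 and 1512 in sort 3, against 963 to 1422. The raw 75th percentile was itself lower in sort 3 (534 and 549, against 1581 to 1684), and its part was not tested. Relative to that percentile, both probes were highest in sort 3 in both groups, by 0.48 for the brighter and by 1.94 for the other over the mean of sorts 1 and 2. Their group differences were -0.25 and -0.04. Neither passed the test, and the brighter one had a 95% interval of -0.85 to 0.35 (limma adjusted p = 0.887, and 0.312 with the block). A or T made up 65.0% of the bases of the brighter probe and 68.3% of those of the other. Sort 3 differed from the others in RNA input and age at once. Why the 2 probes differed in their sort 3 level was not tested.

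**Figure D3:**
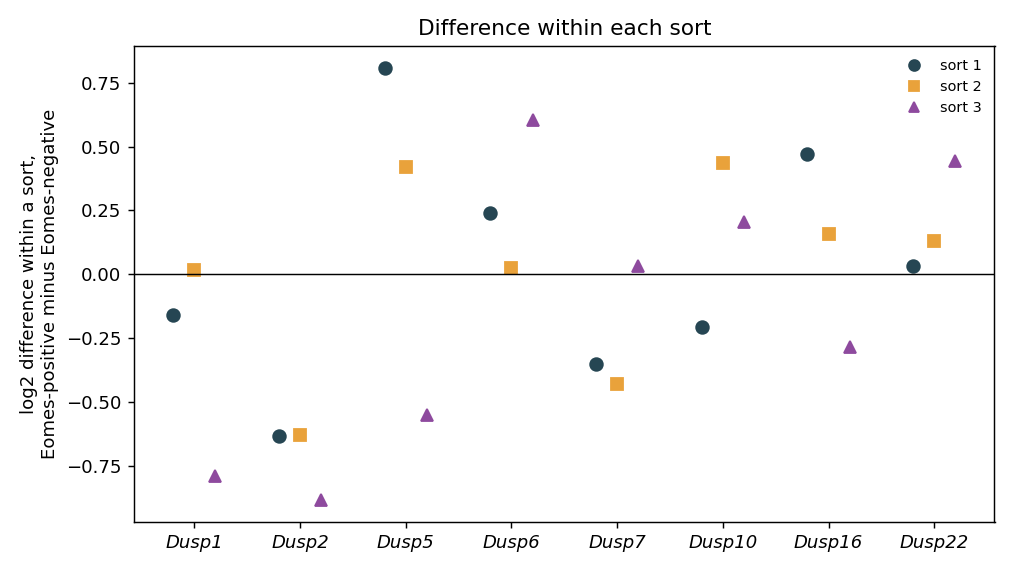
Difference of each tested Dusp gene within each sort (y axis: log2, Eomes-positive minus Eomes-negative of the same sort; 1 symbol per sort). Dusp2 lies below 0 in all 3 sorts, at -0.63, -0.63 and -0.88, Dusp6 and the brightest Dusp22 probe, though not the other measured Dusp22 probe, lie above 0 in all 3, and the other 5 genes have sorts on both sides of 0.

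Dusp10 and Dusp16 encode phosphatases that prefer JNK and p38 over ERK, and mice without Dusp10 are known for altered T cell responses. Dusp10 had levels of -0.25, -0.06 and -0.14 in the Eomes-positive samples of sorts 1, 2 and 3, against -0.04, -0.50 and -0.34 in the Eomes-negative samples. The groups overlapped, the within-sort differences were -0.21, 0.44 and 0.20, and the overall difference of 0.14 had the narrowest interval of the 8 genes with group only, -0.28 to 0.56 (limma adjusted p = 0.924, and 0.594 with the block). This interval holds a change of Dusp10 between 1.21-fold lower and 1.48-fold higher in Eomes-positive cells.

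Dusp16 had 2 probes on the minus strand, A_66_P116252 at chr6:134665783-134665842 and A_52_P492081 at chr6:134668003-134668062 (mm9). Their first 30 bases are shown because only the A_66 probe gave a signal.
Dusp16 probe A_66_P116252: ctgtcagtccttcgtcactaatgtcgtatc
Dusp16 probe A_52_P492081: ggcatgaagagagcccctttgaaaagcagt
A_66_P116252 read -0.89, -0.66 and -1.76 on the Eomes-positive arrays of sorts 1, 2 and 3, against -1.36, -0.82 and -1.48 on the Eomes-negative arrays. The sort 3 samples were the lowest of both groups, and the difference of 0.11 (95% interval -0.74 to 0.97, limma adjusted p = 0.987, and 0.704 with the block) ran the other way in sort 3, at -0.28, than in sorts 1 and 2, at 0.47 and 0.16. A_52_P492081 read between -7.20 and -5.54 and was measured on no array.

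Dusp22 encodes an atypical, small phosphatase that lacks the MAP kinase binding domain of the others; it is known to dephosphorylate the kinase Lck and so to dampen T cell receptor signalling. Its 3 probes, all on the plus strand, lie at chr13:30801830-30801889, chr13:30800558-30800617 and chr13:30797940-30797999 (mm9), in the order of the sequences. The first 30 bases of each are shown because the 3 probes disagree.
Dusp22 probe A_55_P2436438: cccagtcaactctgcttcatagttgagaat
Dusp22 probe A_55_P2095213: ctgagagaagagtatggagagaaccctttg
Dusp22 probe A_55_P2071092: gttgttgtcaaggttagtggcacgaaagac
The brightest, A_55_P2436438, read -1.96, -1.65 and -2.45 on the Eomes-positive arrays of sorts 1, 2 and 3, against -1.99, -1.78 and -2.89 on the Eomes-negative arrays. For this probe the Eomes-positive sample was higher in each sort, by 0.03, 0.13 and 0.44, and the difference of 0.20 (95% interval -0.69 to 1.09) did not pass the test (limma adjusted p = 0.967, and 0.361 with the block). A_55_P2095213 read -2.69, -1.98 and -2.54 on the Eomes-positive arrays, against -2.56, -1.31 and -2.54 on the Eomes-negative arrays, so its difference had the opposite sign, -0.27 (limma adjusted p = 0.965 in the fit over probes). A_55_P2071092 was measured on 1 array only, that of the Eomes-positive sample of sort 1, where it read -5.13. No direction is therefore given for Dusp22.

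**Figure D4:**
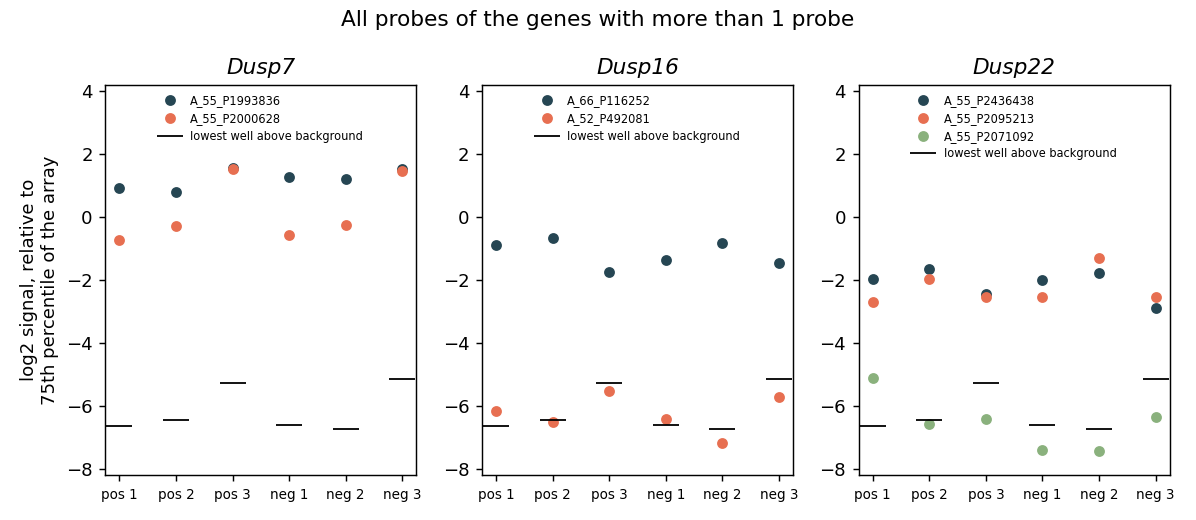
Every probe of the 3 Dusp genes with more than 1 probe on each array (y axis: log2 signal over the array's 75th percentile; pos, Eomes-positive; neg, Eomes-negative; numbers are sorts), with black dashes for the dimmest probe well above background on that array. Sort 3 lies above the mean of sorts 1 and 2 by 0.48 for the first Dusp7 probe and by 1.94 for the second, and 1 probe each of Dusp16 and Dusp22 lies near the background.

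The 8 measured genes were also compared with each other over the 6 arrays. By the root mean square difference in log2 units between profiles, each centred on its own mean, the closest pairs were Dusp22 with Dusp6 (0.20), Dusp16 with Dusp5 (0.23) and Dusp16 with Dusp22 (0.26). The farthest pair was Dusp22 with Dusp7 (0.67). All Dusp22 distances rest on its brightest probe, and its other measured probe, whose group difference had the opposite sign, was not compared. No likeness of Dusp22 as a gene is therefore given. For the 2 members with the greatest absolute difference, Dusp2 and Dusp1, the most similar of 10734 other genes were sought. For Dusp2 these were Atf5, a leucine-zipper transcription factor (0.07), Eva1b (0.07) and the zinc finger gene Zfp1 (0.07), against a median of 0.49 over all genes. Atf5 had 0.46, 0.28 and -0.10 in Eomes-positive samples of sorts 1, 2 and 3, against 1.24, 1.01 and 0.84 in Eomes-negative samples. For Dusp1 they included the kinase gene Bmx (0.13) and Ncaph, a condensin subunit (0.14), against a median of 0.49. These likenesses describe 6 arrays only, and distances chosen as the smallest among 10734 genes lie below the median by that choice.

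The sequences just upstream of the gene starts were searched for a few motifs of inducible transcription, in the 250 bases before the start in RefSeq promoters of GRCm38.p6, on both strands. Promoters were at hand for 8 of the 9 genes, all but Dusp4, and the same windows of 32851 promoters served for comparison. The cAMP response element TGACGTCA stood in 1 of 8, Dusp1, and in 1.55% of all promoters, and its core TGACG, which the full element contains, in 3 of 8 (Dusp1, Dusp5 and Dusp16) and in 17.8%. The E-box CACGTG stood in Dusp1 and Dusp2, and in 6.02% of all promoters, and the CArG box of serum response in Dusp5 alone, and in 1.47%. The T-box core GGTGTGA (3.33% of promoters), the ETS core CCGGAAG (6.91%) and TATAAA (12.4%) were in none of the 8 windows. The windows of Dusp2 and Dusp1, the members with the greatest differences and the only ones with the E-box, are shown with the matches in capitals.
Dusp2, chr2:127335909-127336158, plus strand, E-box in capitals: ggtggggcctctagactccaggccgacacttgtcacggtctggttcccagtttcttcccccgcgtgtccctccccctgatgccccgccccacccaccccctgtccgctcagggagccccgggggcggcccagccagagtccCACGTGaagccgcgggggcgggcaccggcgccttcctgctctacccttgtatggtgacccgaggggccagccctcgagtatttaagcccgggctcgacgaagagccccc
Dusp1, chr17:26508473-26508722, minus strand, TGACG core, full cAMP response element and E-box in capitals: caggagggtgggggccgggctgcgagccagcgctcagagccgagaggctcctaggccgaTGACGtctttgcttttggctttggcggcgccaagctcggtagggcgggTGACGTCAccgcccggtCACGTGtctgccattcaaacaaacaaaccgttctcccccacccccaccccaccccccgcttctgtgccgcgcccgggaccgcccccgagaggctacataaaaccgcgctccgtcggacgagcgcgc
G and C made up 70.4% of the Dusp2 window and 68.4% of the Dusp1 window. A match describes letters in a window and does not show a bound site.

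Among the lists of the MAP kinase pathways, only that of the MAP kinases themselves held calls with group only. Of 10 tested MAP kinase genes 2 were called higher in Eomes-positive cells and 0 lower, against 1.2% and 1.57% of all tested genes. The list median was 0.14. Mapk12, which encodes p38γ, had 0.97, 0.82 and 1.48 in Eomes-positive samples of sorts 1, 2 and 3, against -3.72, -3.70 and -3.26 in Eomes-negative samples, and the difference of 4.65 (SE 0.24, limma adjusted p = 0.00174) was many times the spread within either group. Mapk11, which encodes p38β, had -0.07, -0.27 and 0.28 in Eomes-positive samples, against -1.26, -1.26 and -0.99 in Eomes-negative samples, a difference of 1.15 (SE 0.19, limma adjusted p = 0.0445). Mapk11 lost the call when any 1 sample was left out (differences 0.997 to 1.27, limma adjusted p 0.0839 to 0.174), and also with normexp background correction (adjusted p = 0.0686), median scaling (0.101) or no filter on dim probes (0.143). Mapk12 lost it when sort 1 or sort 2 was left out (adjusted p = 0.117 and 0.0778). Other genes for ERK, JNK and p38 kinases did not pass: Mapk3 differed by 0.34, Mapk8 by 0.10, Mapk9 by 0.22 and Mapk14 by -0.11. These 4 were named for their roles after their values were seen.

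None of the 26 genes of the cascade above the MAP kinases was called by limma with group only (median 0.05; 2 at an unadjusted p under 0.05, against 12.2% of all tested genes, here and for the lists that follow). Those with the highest signal were Map3k1, a kinase at the head of the JNK branch, with a difference of 0.35, and Map2k2, which phosphorylates ERK, with -0.19. None of 10 kinases that MAP kinases activate was called (median 0.07; 2 at an unadjusted p under 0.05), and the brightest were Mknk2, which phosphorylates the cap-binding translation factor, at 0.29, and Rps6ka1, at -0.18. None of 5 tested other MAP kinase phosphatases was called (median -0.14; 2 at an unadjusted p under 0.05): Ppm1b, a serine/threonine phosphatase, differed by 0.95 and Ptpn7, a tyrosine phosphatase of blood cells, by -0.56. None of the 8 tested among 16 other dual-specificity phosphatases was called (median -0.18; 1 at an unadjusted p under 0.05), and the brightest, Dusp12 and Dusp28, differed by -0.40 (limma adjusted p = 0.221) and -0.10. With the sort as a random block Dusp12 passed (adjusted p = 0.0164), and with it as a fixed block it did not (0.0753).

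With the sort as a block each of 5 such lists gained 1 call, against 7.98% of all tested genes called in either direction. They included Rps6ka5, a nuclear kinase downstream of ERK and p38 (1.25, limma adjusted p = 0.0107), Ppm1b (adjusted p = 0.0212), the AP-1 gene Fosl2 (0.91, adjusted p = 0.0492) and the small phosphatase gene Dusp3, which was lower (-1.47, adjusted p = 0.0376). Of these, all but Ppm1b were named after their values were seen. Dusp3 had levels of -3.47, -0.96 and -2.17 in Eomes-positive samples of sorts 1, 2 and 3, against -1.43, 0.33 and -1.09 in Eomes-negative samples. In both groups it was highest in sort 2, the sort with the high myeloid sums, whose part in the Dusp3 difference was not tested.

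Targets of ERK and genes that respond to cell handling gave no group-only call. Of 15 tested ERK-induced and feedback genes 0 were called (median -0.09; 3 at an unadjusted p under 0.05), and the brightest, the immediate early genes Ier2 and Egr1, differed by -0.30 and -0.09. Ier2 had 2.48, 2.48 and 2.26 in Eomes-positive samples, against 2.75, 2.67 and 2.68 in Eomes-negative samples (limma adjusted p = 0.499). Of 16 tested immediate early and cell preparation genes 0 were called in either fit (median -0.10; 1 at an unadjusted p under 0.05), the heat shock gene Hspa8 differing by 0.17 and Nfkbia, the inhibitor of NF-κB, by -0.17.

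**Figure D5:**
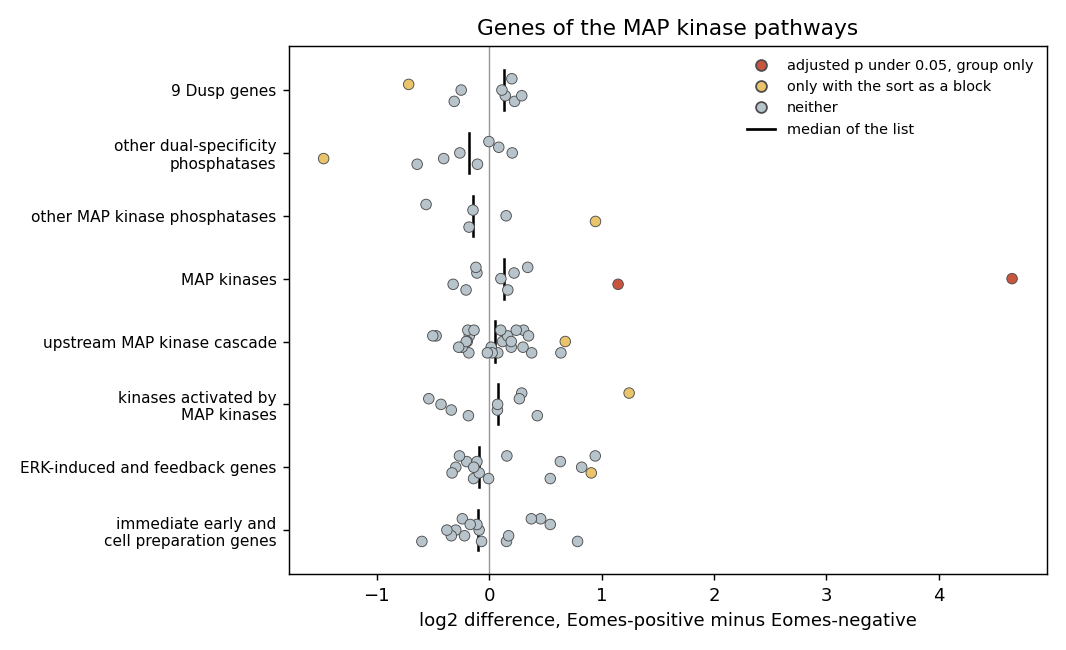
Difference of every tested gene of the Dusp members and of 7 lists of the MAP kinase pathways (x axis: log2, Eomes-positive minus Eomes-negative; 1 point per gene, spread within a row for legibility; black lines, list medians). Red points passed with group only, which in these lists are Mapk12 at 4.65 and Mapk11 at 1.15, and yellow points passed only with the sort as a block.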

How the data were processed

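Transcript levels were measured on 6 one-colour Agilent arrays, with 3 samples per group. Per the file headers, spot intensities were made with Agilent Feature Extraction 10.7.3.1, background-subtracted and detrended but not normalized between arrays; the scanner files the authors deposited also hold other columns, flags (0 or 1) that mark bright, saturated and outlying spots. The value table that the authors deposited holds intensities that differ from the scanner's by a constant per array on the log2 scale, with 75th percentiles of 1497 to 1506, and served as an alternative.

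Spots without an outlier flag were averaged per probe as log2 processed signal, and each array's 75th percentile was taken off. Measured means that 50% or more of a probe's spots were well above background. The brightest probe stood for a gene, named by the RefSeq accession of the probe (27508 probes, 2017 of them renamed) or else by the scanner file (11921 probes). Genes measured on at least 3 of 6 arrays were tested with limma 3.58.1 (R 4.3.3 and statmod 1.5.0, with tables read by data.table in version 1.17.8), with group as the only term, Benjamini-Hochberg adjustment and a threshold of 0.05; p-values measure the spread between 3 pooled sorts. The code was tested on simulated data. None of the 312 member spots was saturated and 9 were marked as outliers. Probe positions are those of the files, in mm9; exon or UTR annotation of that build was not used here. Plots used matplotlib 3.10.9 and pandas 2.3.3 under Python 3.11.15.

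The numbers pair the samples: the design text speaks of independent sorts that gave both groups, the same number shares age and RNA input, and deviations from the group mean over 16413 genes correlated at 0.81, 0.82 and 0.81 within sorts and at -0.57 to -0.26 between them. The deviations of a gene sum to 0 within each group. The correlations between sorts are therefore negative on balance once those within sorts are positive, and they are no separate support for the pairing. Because the samples are paired, sort is also fitted as a block.

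The members and lists were chosen with earlier results of these data known. The text names all 9 members with every probe, from each list up to 3 called genes with the greatest difference or, with none called, the 2 with the highest signal, Eomes, and the 3 genes most like a called member or, with none called, like each of the 2 members with the greatest difference. Not every gene so named is described, and a few genes are not reported here.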

Additional observations from a re-analysis of the deposited data

How the results depend on the processing

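No member was called higher under any setting tried, and Dusp2 was the only one called lower, with the sort in the model. The count of members called lower, 0 with group only, was 1 with the replicate block, 1 with the sort as a random block and, in settings chosen after seeing the data, 1 each with the replicate block combined with normexp background correction, quantile normalization, median scaling, the authors' table or genes measured on all 6 arrays. The block changed the call of no other member. Dusp2 passed in 2 of 23 planned settings, the 2 with the sort in the model as a fixed or random block. The settings within slide 1 and within slide 3 gave a difference without a test. They hold the ends of its range over the 23 settings, -0.48 and -0.88. Over all genes, 197 were called higher and 257 lower with group only, 600 and 710 with the replicate block, 1063 and 1131 with the random block, and 92 and 154 without the filter on dim probes; with genes measured on all 6 arrays 166 were called lower. Leaving out samples gave 0 to 89 genes higher and 0 to 180 lower, with 0 and 0 without sort 1 or without sort 2; fewer samples enter these fits. 

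Directions turned for members whose intervals hold 0. When samples were left out, with the block or without it, the difference ran from -0.0023 (without sort 2) to 0.32 for Dusp10, from -0.0652 (without sort 1) to 0.61 for Dusp5, from -0.107 to 0.44 for Dusp16 (-0.0638 without sort 1) and from -0.132 to 0.42 for Dusp22, and also from -0.21 to 0.0124 for Dusp28, from -0.23 to 0.0771 for Egr1 and from -0.32 to 0.0240 for Nfkbia. Dusp6 was at -0.0364 within slide 1 and Dusp7 at 0.0340 within slide 3. When samples were left out, these 2 kept their direction, at 0.06 to 0.55 for Dusp6 and -0.48 to -0.10 for Dusp7, as did Dusp1, at -0.56 to -0.07. Dusp16 was at -0.0082 with the slide as a block, Dusp22 at -0.267 with its second probe, Egr1 at 0.0095 with median scaling and Hspa8 at -0.0342 with the mean of its probes; the cause was not tested. Median scaling put the median of all genes at 0.09, against -0.01.

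The intervals of the 7 members other than Dusp2 hold differences in both directions that 3 sorts cannot tell from 0, signals of Dusp4 and of 1 probe each of Dusp16 and Dusp22 are limited by background, and sort 3 had the lowest signal.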
